A study of Mus musculus with 12 samples.

Results

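The Ly49 receptors, encoded by the Klra genes, were described in natural killer T (NKT) cells, T cells whose receptor binds lipids held by the CD1d molecule. Rows were chosen by symbol: Klra1, Klra3, Klra5, Klra6, Klra7, Klra8, Klra9, Klra10, Klra23 and the pseudogene Klra13-ps, which are 10 of 23284 rows of each table and 10 of the 21 rows with a numbered Klra symbol. RNA came from C57BL/6 mice, from live cells sorted as CD45R-, CD4-, CD8-, CD1d dimer-binding and TCRb+, which the labels call mature. The 12 libraries form 4 groups of 3. The cKO cells, from thymus or liver, are NKT cells of double-negative (DN) origin from mice with floxed Rag2 alleles and an E8III-Cre transgene that is active in CD4+CD8+ double-positive (DP) cells. The YFP+ cells, from thymus or liver, are NKT cells of DP origin from mice with the same Cre and a Rosa26-loxP-STOP-loxP reporter. The age of the mice and any pooling are not given in the sources used here. The 2 origins came from 2 kinds of mouse, so an effect of the origin and one of the mouse cannot be told apart. For the liver, the titles and the table headers name one mouse and the description field the other. Groups follow the titles, and every liver direction given here is mirrored if the descriptions hold. The comparison of the tissues would not simply mirror. Its values would then change in size and could change in sign or call, and it was not refitted with the liver groups swapped. Rag2, the gene floxed in cKO mice, was listed at 0 in the 3 liver cKO libraries, while the liver YFP+ libraries had 1.36, 0.985 and 1.07 FPKM. The thymocyte genes Rag1 and Dntt were lower in liver cKO too, with means of 0.188 and 0.546 FPKM, against 1.72 and 16.1 FPKM in liver YFP+. Rag2 therefore does not settle which liver label holds. In the thymus Rag2 was listed at 0 in every library but cKO replicate 2 (0.015 FPKM), so it does not tell the groups apart there either.

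Ly49 receptors are lectin-like proteins that sit on the surface of NK cells and of some T cells as paired chains and bind MHC class I molecules or viral look-alikes. Most carry an immunoreceptor tyrosine-based inhibitory motif (ITIM) in the part inside the cell and recruit the phosphatase SHP-1, which damps activation. A few lack the motif and signal through the adaptor DAP12 instead. Each cell expresses a subset of the genes, so the RNA of a sorted population reports both how many cells express a receptor and how much each makes. In bulk samples such as these, fewer expressing cells and less RNA per cell cannot be told apart.

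The start of the coding sequence shows the split between the inhibitory and the activating receptors. The first 60 bases are given for the 8 members with a coding sequence in the GENCODE M21 transcripts (mouse, GRCm38), and capitals mark codons that match the ITIM.

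Klra1: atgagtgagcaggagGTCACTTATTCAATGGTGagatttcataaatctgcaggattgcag
Klra3: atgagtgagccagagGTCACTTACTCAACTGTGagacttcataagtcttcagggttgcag
Klra5: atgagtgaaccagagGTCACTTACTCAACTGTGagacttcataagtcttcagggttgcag
Klra6: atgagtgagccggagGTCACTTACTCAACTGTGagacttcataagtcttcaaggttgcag
Klra7: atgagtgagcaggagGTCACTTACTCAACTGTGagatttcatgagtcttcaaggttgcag
Klra9: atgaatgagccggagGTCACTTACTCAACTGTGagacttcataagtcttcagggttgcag
Klra10: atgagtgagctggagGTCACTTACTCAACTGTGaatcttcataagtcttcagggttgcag
Klra8: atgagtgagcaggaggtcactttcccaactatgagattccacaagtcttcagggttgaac

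The ITIM codons were at bases 16 to 33 in 7 of these 8 genes, and Klra8 had no match within its first 15 codons. The coding sequences were alike, at 77.9 to 96.9% identity over the 28 pairs with a median of 87.2%. Klra3, Klra9 and Klra10 were the closest, with 96.9% between Klra9 and Klra10, 96.2% between Klra3 and Klra10 and 95.9% between Klra3 and Klra9. Of the 50-base windows of a gene's transcripts, 39.8% in Klra10, 33.1% in Klra8, 31.5% in Klra9, 20.7% in Klra3, 13.7% in Klra13-ps and 12.3% in Klra7 also occurred, letter for letter, in a transcript of another Klra gene. The shares were 2.98% in Klra1, 2.62% in Klra6 and 0.655% in Klra5. Reads from a shared stretch cannot be assigned to a gene with certainty, and Cufflinks divides them by a model. By these shares the levels of Klra10, Klra8, Klra9 and Klra3 are the less certain ones, while Klra1, Klra5 and Klra6 overlap least with annotated neighbours. The shares leave out 8 Klra symbols without a gene in GENCODE M21. Among these are Klra19, which Klra6 tracked, and Klra23, which tracked Klra13-ps, as given next. The shares therefore do not rank the certainty of every row.

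The tables held further rows that tracked a member closely. GENCODE M21 has a gene for 13 of the 21 numbered Klra symbols and none for Klra12, Klra15, Klra18, Klra19, Klra21, Klra22, Klra23 and Klra33. Klra6 was at 0.995 to 1.02 times the value of Klra19 in all 12 libraries. Klra23, described as Ly49W in NOD mice, was at 0.474 to 0.499 times Klra13-ps. Over the 171 pairs of Klra rows above 1 FPKM in every library, the highest ratio was a median of 5.68 times the lowest, so these 2 pairs moved almost as 1 signal each. Klra13-ps and Klra23 are therefore described together and are no separate evidence of each other. Klra12 moved with them too, at 0.372 to 0.466 times Klra13-ps.

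In the thymus, 6 of the 10 members were higher in cKO cells and none was lower at an adjusted p under 0.05 (limma on log2(FPKM + 1), adjusted over 9097 genes), against 2.64% of all tested genes called higher, 13.1% called lower and 15.7% called in all. The groups were apart for 7 members in the higher and 1 in the lower direction, against 5.34% and 37.6% of all tested genes, 42.9% together. Klra7, Klra13-ps and Klra23 rose most, Klra8 and Klra10 followed, and Klra9 rose least. Klra1, Klra3, Klra5 and Klra6 did not pass. All 10 members reached the mean of 1 FPKM (fragments per kilobase of transcript, scaled to the mapped fragments of the library) that was needed for a test. Log2 changes are cKO minus YFP+ on the log2(FPKM + 1) scale, with their standard error (SE). They are given relative to the median tested gene, which lay at -0.16 in the thymus and -0.11 in the liver, while p-values refer to the values as deposited.

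**Figure D1:**
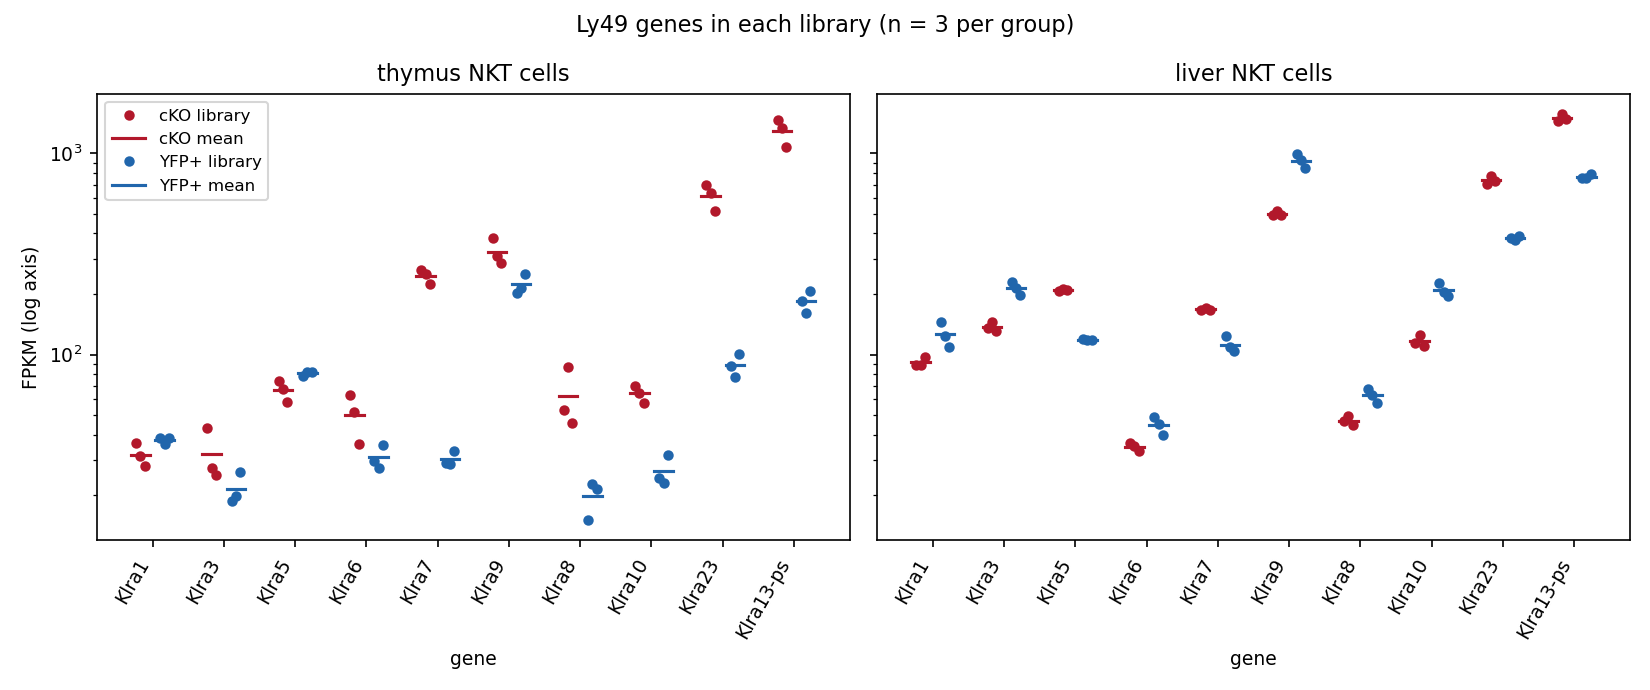
FPKM of each Ly49 gene on a log axis in the thymus (left panel) and the liver (right panel); points are libraries, lines are means, and cKO stands left of YFP+ for each gene (n = 3 per group). In the thymus the cKO points of Klra7, Klra13-ps and Klra23 lie far above the YFP+ points, while in the liver Klra9, Klra10 and Klra3 lie below them and Klra5 above.

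Klra7 (Ly49G), an inhibitory receptor, was at 263, 251 and 225 FPKM in the 3 thymus cKO libraries, against 29.1, 28.7 and 33.0 FPKM in the thymus YFP+ libraries. The groups were far apart, with means of 246 ± 19.4 and 30.3 ± 2.41 FPKM (SD, n = 3 each) and a log2 change of 3.15 ± 0.0881 (SE). Its adjusted p in limma was 3.73e-06. Klra9 (Ly49I), an inhibitory receptor that binds H2-Kb, was at 378, 311 and 284 FPKM in cKO thymus, against 203, 214 and 252 FPKM in YFP+ thymus. The groups did not overlap. Its mean was the highest of the members in YFP+ thymus, with Klra13-ps overlapping it, and came after Klra13-ps and Klra23 in cKO thymus. Its log2 change was 0.70 ± 0.122, with an adjusted p of 0.0266 in limma. It missed the threshold when cKO replicate 2 was left out (0.0567), without YFP+ replicate 1 (0.0868) or 2 (0.0817), and with no filter on low values (0.0877).

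Klra6, Klra3, Klra1 and Klra5, also inhibitory receptors, did not pass. Klra6 (Ly49F) was at 63.2, 51.7 and 35.9 FPKM in cKO thymus, against 29.5, 27.3 and 35.6 FPKM in YFP+ thymus, so that the lowest cKO library lay just above the highest YFP+ library. It missed the threshold in limma (log2 change 0.82 ± 0.191, adjusted p = 0.0511) and passed with median-ratio scaling (0.0267) or without cKO replicate 3 (0.0147). Klra3 (Ly49C), which binds H2-Kb, was at 43.2, 27.3 and 25.2 FPKM in cKO thymus, against 18.7, 19.9 and 26.1 FPKM in YFP+ thymus, and the groups overlapped (log2 change 0.69 ± 0.203, adjusted p = 0.104 in limma). Klra1 (Ly49A), the founding member of the family, was at 36.4, 31.2 and 27.9 FPKM in cKO thymus, against 38.3, 35.8 and 38.6 FPKM in YFP+ thymus. Its groups overlapped as well (log2 change -0.07 ± 0.102, adjusted p = 0.126 in limma). Klra5 (Ly49E), an inhibitory receptor prominent in fetal lymphocytes, was at 73.5, 67.3 and 58.2 FPKM in cKO thymus, against 78.1, 82.0 and 82.4 FPKM in YFP+ thymus. Every cKO library lay below every YFP+ library, but the change did not pass (log2 change -0.12 ± 0.0925, adjusted p = 0.0661 in limma). Without cKO replicate 1, Klra1 and Klra5 passed as lower (adjusted p = 0.0214 and 0.0165), in a fit that called 2408 genes rather than 1429.

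Klra8 (Ly49H), the activating receptor that recognises the m157 protein of mouse cytomegalovirus, was at 53.2, 87.1 and 45.5 FPKM in cKO thymus, against 15.03, 22.8 and 21.5 FPKM in YFP+ thymus. The groups were apart although cKO replicate 2 stood well above the other cKO libraries, and the log2 change was 1.73 ± 0.239 (adjusted p = 0.00597 in limma). Klra10 (Ly49J), whose coding start holds the ITIM codons shown above, was at 69.8, 64.6 and 57.7 FPKM in cKO thymus, against 24.4, 22.9 and 31.7 FPKM in YFP+ thymus. It was higher in each cKO library, with a log2 change of 1.43 ± 0.128 and an adjusted p of 7.68e-04 in limma.

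Klra13-ps (Ly49M), a transcribed pseudogene, was at 1468, 1340 and 1076 FPKM in cKO thymus, against 185, 160.4 and 207 FPKM in YFP+ thymus. Klra23 was at 696, 635 and 516 FPKM in cKO thymus, against 87.8, 77.1 and 100.2 FPKM in YFP+ thymus. Neither pair of groups overlapped, and the log2 changes were almost the same, 2.97 ± 0.132 and 2.95 ± 0.130 (adjusted p = 3.36e-05 each in limma). Klra13-ps shared more of its windows with Klra7, 13.7%, than with any other Klra gene, and these rows rose by like amounts. Whether shared reads carry part of the rise was not tested. With Klra13-ps, Klra23 and the 11 other Klra rows taken out of the table, an alternative chosen after seeing the data, the other 4 calls in the thymus held. Taking out rows reassigns no reads and leaves the values of the other members as they were. It therefore does not bear on shared reads.

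In the liver all 10 members passed, in both directions. Klra5, Klra7, Klra13-ps and Klra23 were higher and Klra1, Klra3, Klra6, Klra8, Klra9 and Klra10 lower in cKO cells, against 7.49% of 9591 tested genes called higher, 19.7% called lower and 27.2% called in all. The groups of all 10 members were apart, in the same directions, against 14.7% of all tested genes apart and higher, 29.6% apart and lower, and 44.3% together. The 3 calls of Klra1, Klra6 and Klra8 were lost with median-ratio scaling (adjusted p = 0.0944, 0.174 and 0.0753). In the liver the YFP+ libraries also had higher erythroid and DP thymocyte markers, given below with the marker lists, and the part of these in the differences was not tested.

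Klra9 was at 492, 518 and 496 FPKM in cKO liver, against 993, 921 and 845 FPKM in YFP+ liver. Its cKO mean was 0.546 times the YFP+ mean, the groups were well apart, and the log2 change was -0.76 ± 0.0776 (adjusted p = 2.89e-04 in limma). Klra10 was at 115, 125 and 111 FPKM in cKO liver, against 227, 206 and 195 FPKM in YFP+ liver (log2 change -0.72 ± 0.0853, adjusted p = 4.93e-04 in limma). Klra3 was at 136, 146 and 130.2 FPKM in cKO liver, against 229, 214 and 197 FPKM in YFP+ liver (log2 change -0.52 ± 0.0829, adjusted p = 0.00155 in limma). These 3 genes, the closest in coding sequence, were all lower in every cKO liver library than in any YFP+ liver library.

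Klra5 was at 206, 212 and 208 FPKM in cKO liver, against 119.9, 118 and 118 FPKM in YFP+ liver. Both groups were tight, and it rose by 0.92 ± 0.0638 on the log2 scale (adjusted p = 1.56e-04 in limma). It is also the member with the fewest windows shared with another Klra transcript. Klra7 was at 167, 171 and 167 FPKM in cKO liver, against 123, 109 and 104 FPKM in YFP+ liver, with a log2 change of 0.69 ± 0.0812 and an adjusted p of 0.00198 in limma. The direction was that of the thymus.

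Klra13-ps was at 1442, 1572 and 1485 FPKM in cKO liver, against 757, 752 and 792 FPKM in YFP+ liver, and Klra23 at 708, 773 and 729 FPKM in cKO liver, against 378, 372 and 389.9 FPKM in YFP+ liver. These values rose by 1.07 ± 0.0669 and 1.06 ± 0.0668 on the log2 scale (adjusted p = 1.11e-04 and 1.15e-04 in limma). The remaining members differed by less. Klra1 was at 88.7, 89.2 and 97.1 FPKM in cKO liver, against 145, 124 and 109 FPKM in YFP+ liver (log2 change -0.34 ± 0.107, adjusted p = 0.0177 in limma). Klra8 was at 46.8, 49.5 and 44.5 FPKM in cKO liver, against 67.7, 63.1 and 57.4 FPKM in YFP+ liver (log2 change -0.30 ± 0.0893, adjusted p = 0.0121). Klra6 was at 36.3, 35.1 and 33.2 FPKM in cKO liver, against 48.9, 45.3 and 39.7 FPKM in YFP+ liver (log2 change -0.23 ± 0.0970, adjusted p = 0.0325). None of the 3 overlapped between groups, but their calls were not kept in every fit without 1 library. Fits without cKO replicate 1, 2 or 3 or YFP+ replicate 2 called 1539 to 1771 genes in all, against 2607 as reported. The Klra1 call was lost without cKO replicate 1 (0.0667) or 2 (0.0661) or YFP+ replicate 2 (0.0557), and the Klra8 call without cKO replicate 3 (0.0502). The Klra6 call was kept in 1 of the 6 fits without 1 library, that without YFP+ replicate 3, and the others gave adjusted p of 0.0704, 0.0879 and 0.107 without cKO replicates 1, 2 and 3 and 0.0606 and 0.0975 without YFP+ replicates 1 and 2. With no filter on low values Klra1 and Klra6 were lost too (0.0513 and 0.06).

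**Figure D2:**
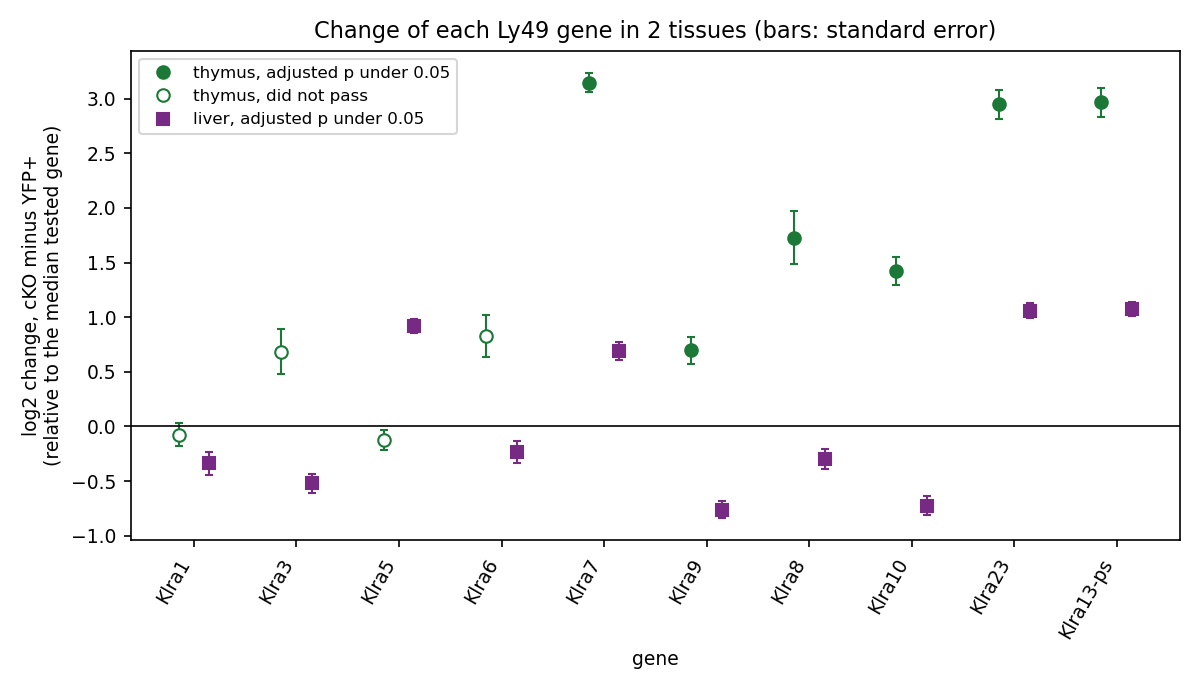
Log2 change, cKO minus YFP+, of each Ly49 gene relative to the median tested gene of the same tissue; circles are thymus, squares are liver, bars are 1 SE, and open symbols did not reach an adjusted p of 0.05. Klra3, Klra6, Klra8, Klra9 and Klra10 lie above 0 in the thymus and below 0 in the liver, and Klra5 lies at -0.12 in the thymus and 0.92 in the liver.

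The difference between cKO and YFP+ cells was then compared between the tissues, as liver minus thymus in a fit of all 12 libraries. It differed for 9 of the 10 members, with 1 more positive and 8 more negative in the liver, against 9.14% and 5.91% of 9739 tested genes, 15.1% together. The values, relative to a median gene at 0.06, were -2.46 ± 0.122 for Klra7, -2.15 ± 0.165 for Klra10 and -2.03 ± 0.287 for Klra8 (SE). Klra13-ps and Klra23 gave -1.90 ± 0.157 and -1.89 ± 0.156, Klra9 -1.46 ± 0.154, Klra3 -1.21 ± 0.245 and Klra6 -1.06 ± 0.237. Klra5 alone among the members was more positive in the liver, by 1.04 ± 0.112. The adjusted p-values of these 9 in limma were between 3.91e-07 and 0.0156, and Klra1 did not pass (-0.27 ± 0.158, adjusted p = 0.411). All 9 calls held in every alternative in which the gene was fitted. None of these alternatives swapped the liver groups, so the calls rest on the liver titles. Klra7, Klra13-ps and Klra23 were higher in cKO cells of both tissues and more so in the thymus. Klra8, Klra9 and Klra10 were higher in cKO cells of the thymus and lower in those of the liver. Klra5 was higher in cKO cells of the liver and did not pass in the thymus. Klra3 and Klra6 passed as lower in the liver, and in the thymus they did not pass.

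The order of the levels over the groups is given with the reservation that thymus and liver values come from separately normalized tables, from what the file names call paired and single reads, and are not tested against each other. Klra1, Klra3, Klra9 and Klra10 were highest in liver YFP+ cells. Klra5, Klra13-ps and Klra23 were highest in liver cKO cells, and Klra7 in thymus cKO cells. Klra6 and Klra8 had their highest means in thymus cKO and liver YFP+ cells, but the neighbouring groups in the order overlapped. Thymus YFP+ cells were lowest for 8 members, the exceptions being Klra1 and Klra5, which were lowest in thymus cKO cells. The thymus groups overlapped for Klra1 and Klra3, and thymus cKO and liver cKO cells overlapped for Klra13-ps.

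The summed FPKM of the 10 members was 3144, 2865 and 2350 in the thymus cKO libraries, against 709, 691 and 829 in the thymus YFP+ libraries. In the liver it was 3437, 3690 and 3501 in cKO, against 3089, 2925 and 2847 in YFP+. The groups were apart in both tissues. These 10 rows held 1.45 ± 0.212% of the FPKM of a thymus cKO library and 0.363 ± 0.0245% of a thymus YFP+ library. In the liver the shares were 0.775 ± 0.0383% in cKO and 0.549 ± 0.0123% in YFP+ (SD, n = 3 each). Without Klra13-ps and Klra23 the order in the liver turned round. The other 8 members summed to 1288, 1345 and 1287 in liver cKO, against 1954, 1800.2 and 1666 in liver YFP+, and to 980.1, 890.3 and 759 in thymus cKO, against 436, 453 and 521 in thymus YFP+. The direction of the family total in the liver thus rests on a pseudogene and a row that tracks it. These sums were not tested.

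**Figure D3:**
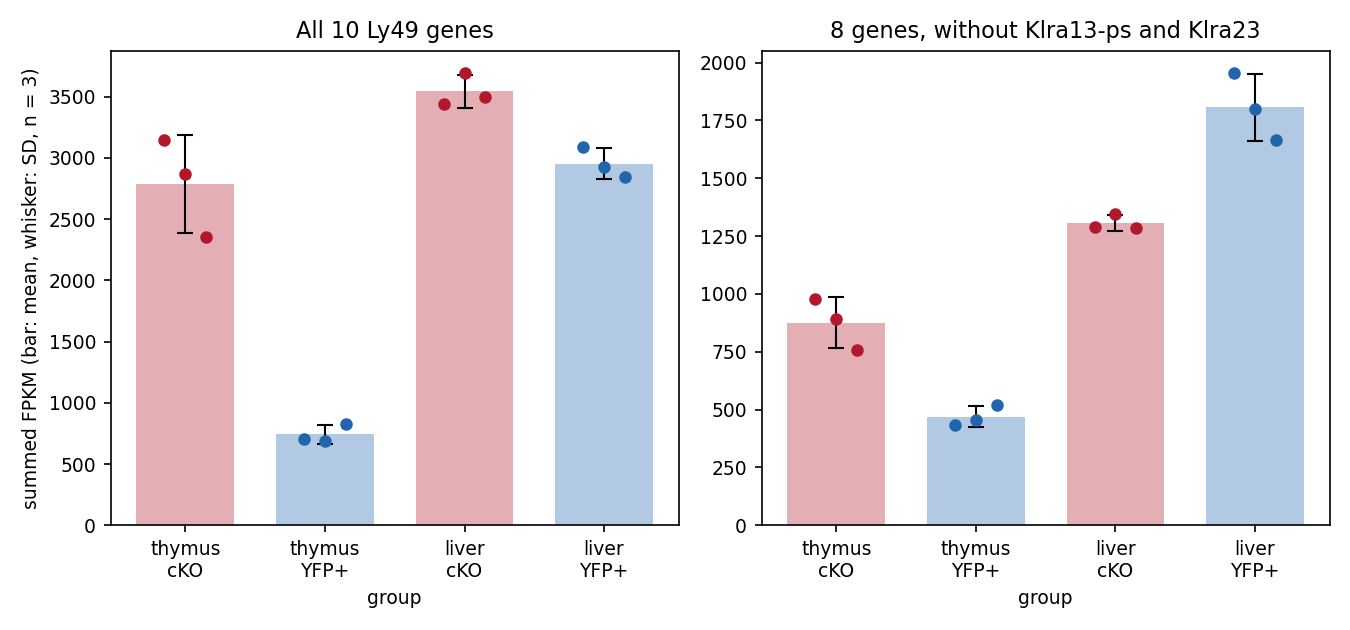
Summed FPKM of the 10 Ly49 genes (left panel) and of the 8 genes without Klra13-ps and Klra23 (right panel); bars are means, whiskers SD, points libraries (n = 3 per group). Liver cKO lies above liver YFP+ in the left panel, at 3437 to 3690 against 2847 to 3089, and below it in the right panel, at 1287 to 1345 against 1666 to 1954.

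The make-up of Ly49 RNA differed between the origins in both tissues. These shares are a description and were not tested. Klra13-ps and Klra23 together with Klra9 made up most of it. Klra13-ps held 46.4 ± 0.557% in thymus cKO cells and 24.8 ± 1.47% in thymus YFP+ cells, and 42.3 ± 0.336% in liver cKO cells and 26.0 ± 1.67% in liver YFP+ cells (SD, n = 3 each). Klra9 held 11.6 ± 0.700% in thymus cKO and 30.0 ± 1.24% in thymus YFP+ cells, and 14.2 ± 0.139% in liver cKO and 31.1 ± 1.29% in liver YFP+ cells. Klra9 thus took a like share of the family in the YFP+ cells of the 2 tissues and a smaller one in cKO cells. Among the 8 members without Klra13-ps and Klra23, Klra7 held 28.2 ± 1.403% in thymus cKO and 6.45 ± 0.195% in thymus YFP+ cells, and 12.9 ± 0.143% in liver cKO and 6.21 ± 0.132% in liver YFP+ cells. Klra5 held 7.58 ± 0.0889% in thymus cKO and 17.3 ± 1.28% in thymus YFP+ cells, but 16.0 ± 0.226% in liver cKO and 6.60 ± 0.487% in liver YFP+ cells. With that denominator Klra9 was the largest part in each group, at 36.9 ± 1.89% in thymus cKO and 47.4 ± 0.962% in thymus YFP+ cells, and 38.4 ± 0.178% in liver cKO and 50.9 ± 0.237% in liver YFP+ cells.

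**Figure D4:**
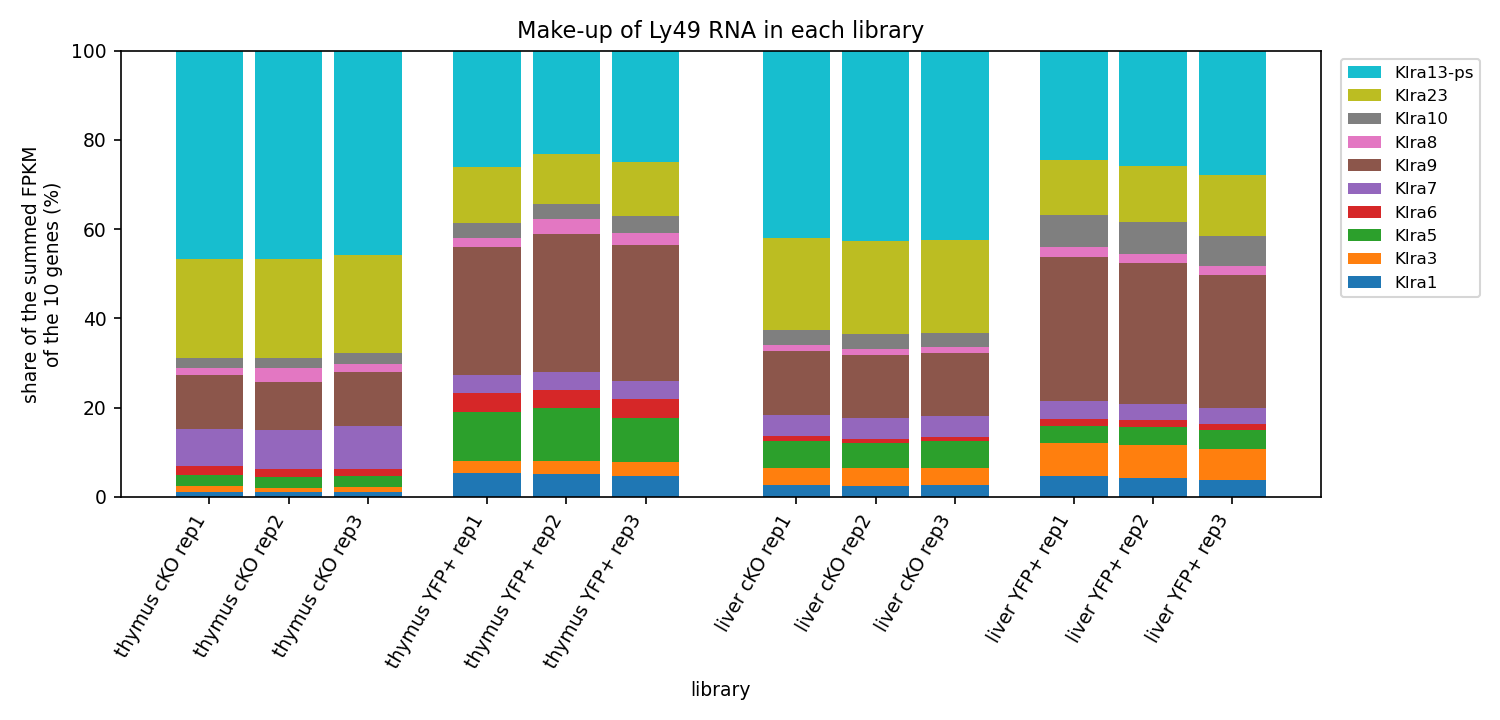
Share of each Ly49 gene in the summed FPKM of the 10 genes, in percent, for each of the 12 libraries; cKO libraries stand left of YFP+ libraries of the same tissue. In cKO libraries Klra13-ps and Klra23 fill the larger part of the bar, and Klra9 takes about the same part in YFP+ libraries of thymus and liver (30.0 and 31.1%).

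Of the 11 other numbered Klra rows, 10 were tested in the thymus, and 8 were higher and none lower in cKO cells, against 2.64% of all tested genes called higher and 13.1% called lower. In the liver 9 were tested, with 4 higher and 3 lower, against 7.49% and 19.7% of all tested genes. These rows are not all separate signals. Klra12 tracked the member Klra13-ps and Klra19 the member Klra6, and Klra22 was at 0.842 to 0.974 times Klra15 in all 12 libraries. Klra12, which tracked Klra13-ps, was at 494 ± 79.2 FPKM in thymus cKO and 84.3 ± 10.7 FPKM in thymus YFP+ cells, and at 588 ± 24.8 FPKM in liver cKO and 300.3 ± 11.9 FPKM in liver YFP+ cells (adjusted p = 6.52e-05 and 1.22e-04 in limma). Klra18 was at 114 ± 10.5 FPKM in thymus cKO and 34.6 ± 3.12 FPKM in thymus YFP+ cells, and Klra22 at 148 ± 22.5 FPKM in thymus cKO and 52.1 ± 2.82 FPKM in thymus YFP+ cells (adjusted p = 7.08e-05 and 2.26e-04). Klra4 (Ly49D), an activating receptor of NK cells, was at 30.9 ± 0.481 FPKM in liver cKO and 22.2 ± 1.13 FPKM in liver YFP+ cells (adjusted p = 0.00559), where the activating Klra8 was lower. In the thymus Klra4 was at 20.7 ± 2.44 FPKM in cKO and 13.2 ± 2.07 FPKM in YFP+ cells (adjusted p = 0.0176 in limma), a call that was lost with no filter (0.0542), without cKO replicate 2 (0.0503) or YFP+ replicate 1 (0.0594) or 2 (0.0595). Klra21 was higher in cKO thymus, at 149 ± 47.5 FPKM in thymus cKO and 63.95 ± 11.2 FPKM in thymus YFP+ cells (adjusted p = 0.0119 in limma), a call that was lost with no filter (0.0503). It was lower in cKO liver, at 108 ± 3.55 FPKM in liver cKO and 161 ± 14.4 FPKM in liver YFP+ cells (adjusted p = 0.00271). Klra2, the distant member at the far end of the cluster, did not exceed 0.443 FPKM in any library.

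Promoter sequence was read for the 8 members in the RefSeq promoter table (GRCm38.p6), each from 250 bases before to 50 after a gene start. It is shown because Tcf7, a factor tied to Ly49 expression in NK cells, passed in both tissues, as given with the transcription factors. In these windows 3 motifs were searched on both strands: CTTTGA for TCF/LEF factors, TGTGGT for RUNX factors and AGGTGT for T-box factors. Over 27025 promoters of the same length they occurred in 16.2, 16.9 and 13.9%. CTTTGA occurred once in Klra7 and once in Klra6, TGTGGT once in Klra1, and the other 5 members held none of the 3. The windows are not all like regions. The Klra10 window holds its coding start, and those of Klra1 and Klra10 aligned with other windows over at most 34 positions, against 200 to 302 among the rest. Capitals mark the motif, and Klra5 is given for comparison.

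Klra7, chr6:130233273-130233572, minus strand: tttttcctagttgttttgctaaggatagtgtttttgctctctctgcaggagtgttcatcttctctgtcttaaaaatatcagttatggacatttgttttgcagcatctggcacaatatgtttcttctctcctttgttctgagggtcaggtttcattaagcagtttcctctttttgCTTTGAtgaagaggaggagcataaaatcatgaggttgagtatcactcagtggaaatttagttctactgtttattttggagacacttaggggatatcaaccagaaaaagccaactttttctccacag
Klra6, chr6:130026905-130027204, minus strand: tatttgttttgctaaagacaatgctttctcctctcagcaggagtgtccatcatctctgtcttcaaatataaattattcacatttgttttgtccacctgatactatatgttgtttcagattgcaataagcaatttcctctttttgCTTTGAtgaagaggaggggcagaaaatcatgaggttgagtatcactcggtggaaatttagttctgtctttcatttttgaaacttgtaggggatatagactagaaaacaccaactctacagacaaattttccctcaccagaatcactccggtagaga
Klra5, chr6:129913175-129913474, minus strand: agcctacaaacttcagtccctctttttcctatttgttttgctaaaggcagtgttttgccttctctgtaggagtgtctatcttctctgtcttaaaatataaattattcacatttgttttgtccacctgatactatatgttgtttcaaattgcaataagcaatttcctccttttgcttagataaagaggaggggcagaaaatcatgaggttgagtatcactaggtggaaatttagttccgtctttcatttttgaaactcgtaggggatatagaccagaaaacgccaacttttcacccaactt

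The windows of Klra5 and Klra6 aligned over 271 positions at 90.8% identity and those of Klra6 and Klra7 over 284 at 77.1%. A match describes these letters and is no sign of binding. Other windows were closer, at 95.4% for Klra3 and Klra9, 93.0% for Klra3 and Klra6 and 91.8% for Klra6 and Klra9. Klra3, Klra6 and Klra9 were lower in cKO liver, while Klra5 was higher there and Klra7 rose in both tissues. Whether likeness of the windows goes with direction was not tested.

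Lectin-like receptors encoded in the same gene complex moved in both directions. In the thymus 6 of 14 tested were higher and 3 lower in cKO cells, and in the liver 4 of 15 higher and 8 lower, with median log2 changes of 0.42 and -0.15. Over all tested genes the shares called higher and lower were 2.64% and 13.1% in the thymus and 7.49% and 19.7% in the liver. Klri2 and Klri1, which pair with Klre1, were higher in cKO cells of both tissues. Klri2 was at 43.7 ± 7.22 FPKM in thymus cKO and 10.7 ± 1.54 FPKM in thymus YFP+ cells, and at 70.3 ± 3.98 FPKM in liver cKO and 36.7 ± 0.0629 FPKM in liver YFP+ cells (adjusted p = 1.79e-04 and 2.21e-04 in limma). Klri1 was at 11.8 ± 2.34 FPKM in thymus cKO and 3.12 ± 1.17 FPKM in thymus YFP+ cells, and at 6.94 ± 0.215 FPKM in liver cKO and 3.50 ± 0.895 FPKM in liver YFP+ cells (adjusted p = 0.00201 and 0.00622). Klre1 was at 114 ± 7.64 FPKM in thymus cKO and 49.7 ± 2.02 FPKM in thymus YFP+ cells, and at 194 ± 4.04 FPKM in liver cKO and 139 ± 15.1 FPKM in liver YFP+ cells (adjusted p = 1.06e-04 and 0.00614). Klrd1 (CD94), the partner of the NKG2 receptors, was lower in both tissues, at 77.5 ± 5.90 FPKM in thymus cKO and 123 ± 3.33 FPKM in thymus YFP+ cells, and at 189 ± 9.85 FPKM in liver cKO and 294 ± 25.7 FPKM in liver YFP+ cells (adjusted p = 0.00148 and 0.00173). Clec2i, a ligand of an NKR-P1 receptor, was at 9.46 ± 1.16 FPKM in liver cKO and 23.6 ± 1.62 FPKM in liver YFP+ cells (adjusted p = 3.19e-04).

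**Figure D5:**
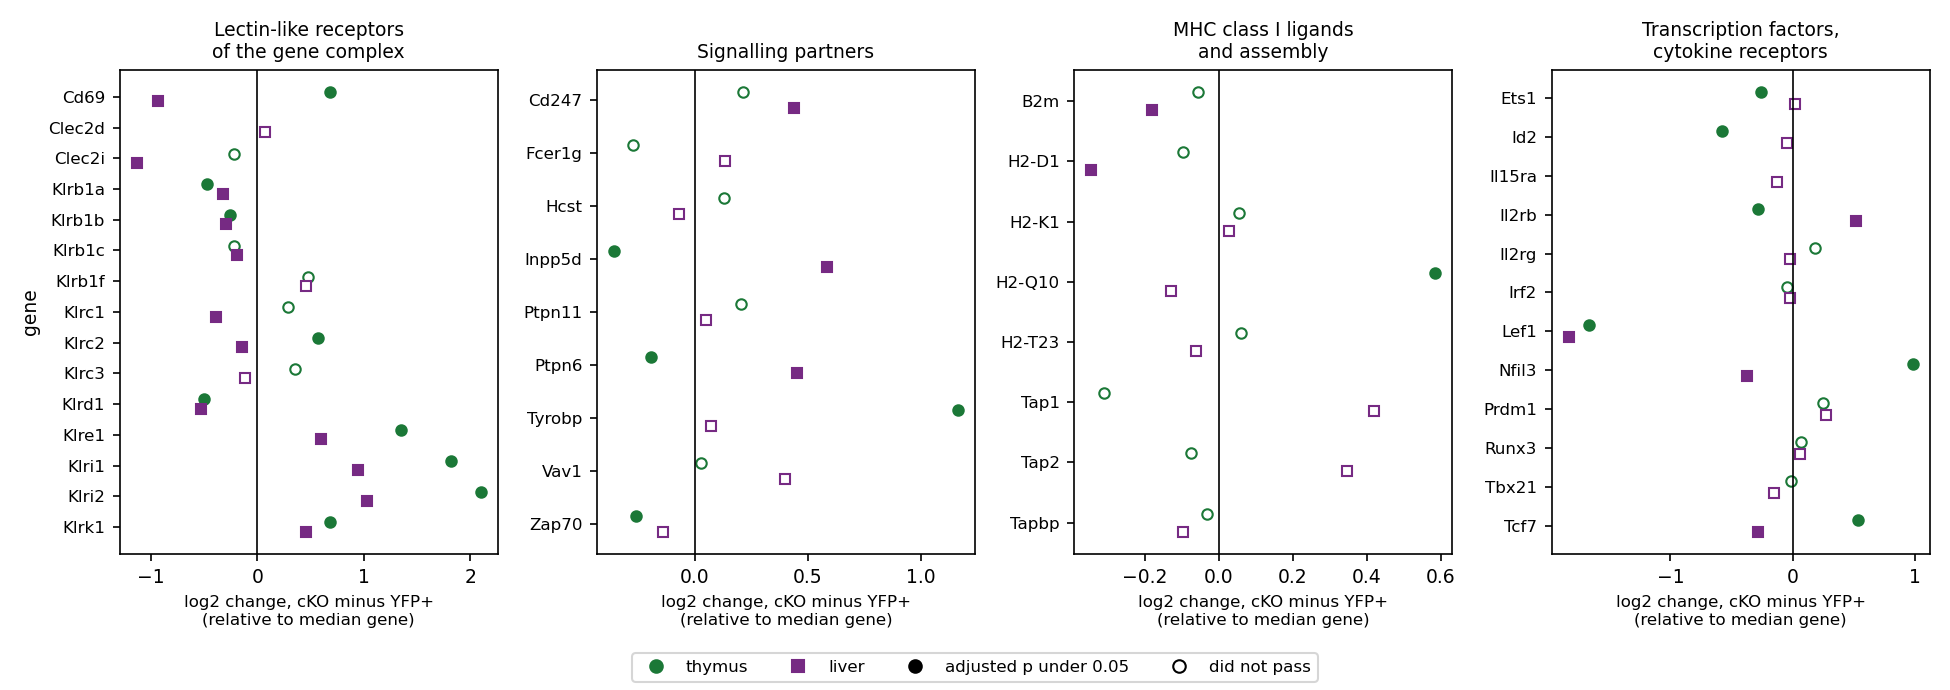
Log2 change, cKO minus YFP+, relative to the median tested gene, of 4 lists of genes linked to Ly49 receptors; circles are thymus, squares are liver, filled symbols reached an adjusted p of 0.05. Klri1, Klri2, Klre1 and Klrk1 lie to the right and Klrd1 and Lef1 to the left in both tissues, while Tcf7 and Nfil3 lie to the right in the thymus and to the left in the liver.

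Among the signalling partners, 1 of 9 tested passed as higher in cKO thymus and 3 as lower, while 3 passed as higher in cKO liver and none as lower. Of all tested genes, 15.7% were called in either direction in the thymus and 27.2% in the liver. By direction, 2.64% were called higher and 13.1% lower in the thymus, and 7.49% higher and 19.7% lower in the liver. The 3 of 9 in the liver were near the share for either direction, but all 3 were higher. Tyrobp, which encodes DAP12, was at 18.3, 9.13 and 7.71 FPKM in thymus cKO, against 5.42, 4.76 and 4.78 FPKM in thymus YFP+ cells (log2 change 1.16 ± 0.260, adjusted p = 0.0383 in limma). The activating Klra8 was among the 6 members higher in cKO thymus too. Within that group Klra8 was highest in replicate 2, at 87.1 FPKM, and Tyrobp in replicate 1. The Tyrobp call was lost without cKO replicate 2 (0.0575), without YFP+ replicate 1 (0.0867), 2 (0.095) or 3 (0.126), and with no filter on low values (0.113). In the liver Tyrobp was at 38.4 ± 2.71 FPKM in cKO and 39.9 ± 7.53 FPKM in YFP+ cells (adjusted p = 0.852). Hcst, which encodes the adaptor DAP10, was at 136 ± 16.7 FPKM in thymus cKO and 139 ± 5.56 FPKM in thymus YFP+ cells, and at 542 ± 16.2 FPKM in liver cKO and 614 ± 59.8 FPKM in liver YFP+ cells (adjusted p = 0.788 and 0.153). It passed as lower without liver YFP+ replicate 3 (0.025).

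Ptpn6, which encodes SHP-1, the phosphatase recruited by the ITIM, was at 134 ± 2.47 FPKM in liver cKO and 105 ± 3.27 FPKM in liver YFP+ cells (adjusted p = 0.00775 in limma). In the thymus it was at 81.7 ± 9.39 FPKM in cKO and 104 ± 1.503 FPKM in YFP+ cells (adjusted p = 0.0347), which was lost with median-ratio scaling (0.238), with no filter on low values (0.0826), without cKO replicate 2 (0.0913) or 3 (0.102), and without YFP+ replicate 1 (0.0957), 2 (0.0913) or 3 (0.0953). Inpp5d, which encodes the lipid phosphatase SHIP1, was lower in cKO thymus at 6.39 ± 0.288 FPKM, with 9.62 ± 0.789 FPKM in YFP+ thymus (adjusted p = 0.00853). It was at 6.64 ± 0.559 FPKM in liver cKO and 4.53 ± 0.879 FPKM in liver YFP+ cells (adjusted p = 0.0407), a call lost in each fit without 1 liver library except that without YFP+ replicate 3 (adjusted p of the others 0.0811 to 0.129) and with no filter on low values (0.0847). Zap70, a kinase of the T cell receptor, was at 47.2 ± 2.87 FPKM in thymus cKO and 63.7 ± 5.08 FPKM in thymus YFP+ cells (adjusted p = 0.0162), and was lost without cKO replicate 2 (0.0504) or 3 (0.0517) or YFP+ replicate 2 (0.0543) or 3 (0.0572). Cd247, the CD3 zeta chain, was at 13.3 ± 0.277 FPKM in liver cKO and 10.4 ± 0.527 FPKM in liver YFP+ cells (adjusted p = 0.0325), and was lost without cKO replicate 1 (0.103), 2 (0.0843) or 3 (0.0888) or YFP+ replicate 2 (0.107).

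Of 8 tested genes of MHC class I ligands and their assembly, 1 was higher in cKO thymus and 2 were lower in cKO liver, with medians of -0.04 and -0.08. These counts are near the 15.7% and 27.2% of all tested genes called in thymus and liver. H2-K1, the ligand of Ly49C and Ly49I in this strain, was at 939 ± 227 FPKM in thymus cKO and 995 ± 10.1 FPKM in thymus YFP+ cells, and at 1209 ± 22.1 FPKM in liver cKO and 1282 ± 87.5 FPKM in liver YFP+ cells (adjusted p = 0.594 and 0.44 in limma). It passed as lower without thymus cKO replicate 1 (adjusted p = 0.0162). H2-D1 was at 1009 ± 22.4 FPKM in liver cKO and 1393 ± 212 FPKM in liver YFP+ cells (adjusted p = 0.0188), and B2m, the light chain of class I molecules, at 3531 ± 35.2 FPKM in liver cKO and 4324 ± 376 FPKM in liver YFP+ cells (adjusted p = 0.0301). Both were lost with median-ratio scaling (0.0505 and 0.271), with no filter (0.068 and 0.114), and without cKO replicate 1 (0.0636 and 0.116), 2 (0.0731 and 0.115) or 3 (0.0555 and 0.0962) or YFP+ replicate 2 (0.0779 and 0.129). H2-D1 was at 1361 ± 163 FPKM in thymus cKO and 1629 ± 139 FPKM in thymus YFP+ cells, and B2m at 953 ± 153 FPKM in thymus cKO and 1101 ± 30.4 FPKM in thymus YFP+ cells (adjusted p = 0.107 and 0.175), and both passed as lower without cKO replicate 1 (0.0272 and 0.0121). H2-Q10, a secreted class I molecule, was at 9.34 ± 1.12 FPKM in thymus cKO and 6.73 ± 0.860 FPKM in thymus YFP+ cells (adjusted p = 0.0459). This call was lost without any 1 library except cKO replicate 2 (adjusted p of 0.0627 to 0.124) and with no filter (0.107).

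Of the transcription factors and cytokine receptors linked to Ly49 expression, 2 of 11 tested passed as higher in cKO thymus and 4 as lower. In cKO liver 1 of 12 passed as higher and 3 as lower, which is near the 27.2% of all tested genes called there in either direction, while 15.7% were called in the thymus. Tcf7, which encodes TCF-1, was at 84.0, 87.9 and 90.5 FPKM in thymus cKO, against 64.5, 68.9 and 68.5 FPKM in thymus YFP+ cells (log2 change 0.54 ± 0.0679, adjusted p = 0.0119 in limma). In the liver it was at 95.9, 91.8 and 93.2 FPKM in cKO, against 123, 125 and 120.4 FPKM in YFP+ cells (log2 change -0.28 ± 0.0672, adjusted p = 0.00488). The groups were apart in each tissue and the direction was that of Klra8, Klra9 and Klra10. The thymus call was lost without cKO replicate 3 (0.0562) or YFP+ replicate 1 (0.0523). Nfil3, a factor of NK cell development, was at 8.11 ± 2.72 FPKM in thymus cKO and 4.01 ± 0.476 FPKM in thymus YFP+ cells (adjusted p = 0.0382), and at 1.70 ± 0.239 FPKM in liver cKO and 2.77 ± 0.455 FPKM in liver YFP+ cells (adjusted p = 0.0407). Its thymus call held without cKO replicate 1 and was lost without any other single library (0.0832 to 0.134), and its liver call was lost without any single library (0.0561 to 0.125) and with median-ratio scaling (0.0926).

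Lef1, the relative of TCF-1, was lower in cKO cells of both tissues, at 5.95 ± 0.935 FPKM in thymus cKO and 23.6 ± 2.04 FPKM in thymus YFP+ cells, and at 9.94 ± 2.79 FPKM in liver cKO and 40.2 ± 2.70 FPKM in liver YFP+ cells (adjusted p = 1.06e-04 and 2.24e-04 in limma). Id2, an inhibitor of E proteins, was at 468 ± 57.9 FPKM in thymus cKO and 782 ± 52.8 FPKM in thymus YFP+ cells (adjusted p = 0.00314). Il2rb, the chain shared by the receptors of IL-2 and IL-15, was lower in cKO thymus, at 266 ± 13.4 FPKM in thymus cKO and 365 ± 28.5 FPKM in thymus YFP+ cells (adjusted p = 0.00998), a call lost with median-ratio scaling (0.0737). It was higher in cKO liver, at 498 ± 18.7 FPKM in liver cKO and 375 ± 33.8 FPKM in liver YFP+ cells (adjusted p = 0.00857). The T-bet gene, Tbx21, stood at 65.6 ± 9.13 FPKM in thymus cKO and 73.9 ± 3.96 FPKM in thymus YFP+ cells, and at 18.4 ± 0.486 FPKM in liver cKO and 22.4 ± 3.93 FPKM in liver YFP+ cells (adjusted p = 0.241 and 0.159), and passed as lower without thymus cKO replicate 1 (0.0332).

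The genes with the pattern most like that of the summed members were found by the root mean square difference of log2(FPKM + 1), each taken as its deviation from the tissue mean, over the 12 libraries. Klra18 was closest at 0.0981, followed by Snx9 at 0.223, Tspan31 at 0.245, Cd55 at 0.254 and Klra15 at 0.273. Not all of them shared the liver direction of the sum. Klra15 was at 63.8 ± 4.75 FPKM in liver cKO and 78.35 ± 11.8 FPKM in liver YFP+ cells, lower in cKO without overlap. Cd55 overlapped between the liver groups, at 2.27 ± 0.448 FPKM in cKO and 2.38 ± 0.653 FPKM in YFP+ cells. Snx9, a sorting nexin of endocytosis, was at 22.4 ± 2.13 FPKM in thymus cKO and 6.52 ± 0.519 FPKM in thymus YFP+ cells, and at 1.65 ± 0.136 FPKM in liver cKO and 0.750 ± 0.154 FPKM in liver YFP+ cells. Tspan31, a tetraspanin, was at 11.3 ± 1.43 FPKM in thymus cKO and 3.70 ± 0.615 FPKM in thymus YFP+ cells, and at 37.5 ± 2.09 FPKM in liver cKO and 32.9 ± 3.05 FPKM in liver YFP+ cells.

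Markers of cells that could carry Ly49 RNA besides NKT cells were read beside these values. All 8 NKT and T cell markers were above a mean of 1 FPKM in each group, with Cd3e at 292 to 295 FPKM in thymus cKO and 348 to 367 FPKM in thymus YFP+ libraries, and at 1018 to 1048 FPKM in liver cKO and 1022 to 1069 FPKM in liver YFP+ libraries. The 11 NK and type 1 innate lymphoid markers summed to 228 to 316 FPKM in thymus cKO and 264 to 266 FPKM in thymus YFP+ libraries. In the liver the sums were 766 to 792 FPKM in cKO and 690 to 883 FPKM in YFP+ libraries, so the groups overlapped in both tissues. Fcer1g, Klre1 and Gzma made up most of these sums, and Klre1 was higher and Gzma lower in cKO cells of both tissues. An overlap of the sums therefore does not mean that the single markers were alike. Of the 8 tested in the thymus, Klre1 and Tyrobp passed as higher and Gzma and Fcgr3 as lower, against 15.7% of all tested genes called. Of the 9 in the liver, Klre1 and Ncr1 passed as higher and Gzma as lower, near the 27.2% of all tested genes called there. Eomes, which defines mature NK cells, was at no more than 0.047 FPKM in the thymus, and at 0.552, 0.560 and 0.668 FPKM in liver cKO, against 0.372, 0.420 and 0.645 FPKM in liver YFP+ cells. Ncr1 (NKp46) was at no more than 0.536 FPKM in the thymus. In the liver it was at 2.87, 1.72 and 1.97 FPKM in cKO, against 0.274, 0.502 and 0.179 FPKM in YFP+ cells, higher in cKO (adjusted p = 0.00209 in limma). It met the mean of 1 FPKM needed for a test only through the cKO libraries (means 2.19 in liver cKO, 0.318 in liver YFP+), so this call is no separate support. Klra5, Klra7, Klra13-ps and Klra23 were also higher in liver cKO cells. In the thymus Ncr1 overlapped between the groups, while Klra7, Klra13-ps and Klra23 were higher in cKO. The part of Ncr1-expressing cells in these differences was not tested.

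The other marker lists were read for both tissues. Liver erythroid markers summed to 9.82 to 14.9 FPKM in cKO and 641 to 742 FPKM in YFP+ libraries. DP thymocyte markers summed to 23.1 to 24.5 FPKM in liver cKO and 78.6 to 87.9 FPKM in liver YFP+ libraries. Each of the 8 was higher in every liver YFP+ library than in any liver cKO library. Only 5 of them were tested in the liver, where 29.6% of all tested genes were apart in that direction. Of these 5, Cd8b1 and Dntt met the mean of 1 FPKM only through the YFP+ libraries. Their means were 0.844 and 0.546 FPKM in liver cKO, against 13.1 and 16.1 FPKM in liver YFP+. Myeloid markers summed to 26.2 to 30.8 FPKM in liver cKO and 59.5 to 84.8 FPKM in liver YFP+ libraries, mostly Lyz2 and Cd14, and B cell markers to 1.92 to 3.34 FPKM in liver cKO and 10.4 to 11.7 FPKM in liver YFP+ libraries. The 5 genes listed as hepatocyte markers gave no common direction. Nearly all of their sum was Trf, the transferrin gene, at 10.6 to 14.4 FPKM in liver cKO and 36.2 to 40.8 FPKM in liver YFP+ libraries. Alb, which encodes albumin and defines hepatocytes, was at 0.053 to 0.059 FPKM in liver cKO and was listed at 0 in liver YFP+ libraries, as were Apoa1 and Ttr, and Serpina1a overlapped between the groups. The list sum was 12.6 to 16.5 FPKM in liver cKO and 37.6 to 42.6 FPKM in liver YFP+ libraries. The 2 gamma-delta T cell markers found in the tables summed to 14.7 to 17.98 FPKM in liver cKO and 1.97 to 3.46 FPKM in liver YFP+ libraries. In the thymus the hepatocyte list summed to 4.33 to 6.18 FPKM in cKO and 26.1 to 30.4 FPKM in YFP+ libraries, again nearly all Trf, while the other 4 genes stayed at or under 0.294 FPKM. The DP list summed to 6.25 to 8.11 FPKM in thymus cKO and 11.9 to 16.7 FPKM in thymus YFP+ libraries, mostly Cd1d1 and Cd4. The thymocyte genes Rag1, Rag2, Dntt and Ptcra did not exceed 0.513 FPKM there. Their means in cKO were at or above those in YFP+, as for Dntt with 0.137 FPKM in thymus cKO and 0.029 FPKM in thymus YFP+ cells. Thymus gamma-delta markers overlapped between groups, at 5.08 to 6.45 FPKM in cKO and 4.88 to 7.68 FPKM in YFP+ libraries. Erythroid markers reached 107.6 FPKM in thymus cKO replicate 1, and B cell and myeloid markers stayed at or under 2.02 FPKM in the thymus. The part of these lists in the Ly49 differences was not tested.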

How the data were processed

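The authors deposited FPKM in 2 tables, thymus and liver. The submitters' processing notes list TopHat2 2.8.0 (version as given there), Cufflinks 2.1.1 and the mm9 build. Per the labels' protocols, cDNA was made with a SMARTer kit, and sequencing libraries with TruSeq or ThruPLEX, without saying which had which. FPKM carry no read totals, so depth is unknown and no counting interval is given. A thymus library summed to between 187828 and 212688 FPKM and a liver library to between 450429 and 558042. Library replicates correlated at 0.988 to 0.995 (Pearson r across genes on the log2 scale), and 0 pairs were identical. Whether replicates were separate animals is not labelled, and p-values then reflect library spread, which may be technical.

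limma-trend (limma 3.58.1, R 4.3.3) was fitted on log2(FPKM + 1) for genes averaging 1 FPKM or more, with Benjamini-Hochberg adjustment over all tested genes, and tested on simulated data. The pseudocount understates changes of low genes. Alternatives were a pseudocount of 0.1, no filter, median-ratio scaling, the replicate number as a block, and each library left out. Strand was not given in the sources used here. Members and lists were chosen with earlier results of these data known. Beside all members, the text names up to 3 called genes without overlap per list and tissue by size of change, 12 genes always, and the 5 genes nearest to the summed members. No value column was left unmapped (0).

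Sequences came from GENCODE M21 transcripts and RefSeq promoters (GRCm38), and mm9 coordinates were not used.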

Additional observations from a re-analysis of the deposited data

Results flagged for a closer look

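The difference between cKO and YFP+ cells was unlike in the 2 tissues for 9 members (limma, liver minus thymus of the log2 change, relative to the median gene). It was -2.46 for Klra7, -1.90 for Klra13-ps and -1.89 for Klra23, which were higher in cKO cells of both tissues. It was -2.15 for Klra10, -2.03 for Klra8 and -1.46 for Klra9, which were higher in cKO thymus and lower in cKO liver. It was -1.21 for Klra3 and -1.06 for Klra6, and 1.04 for Klra5. Each had an adjusted p between 3.91e-07 and 0.0156. Klra13-ps and Klra23 count as 1 signal. All these values follow the liver titles, and they would change in size and could change in sign if the descriptions hold. The tissues also differ in the read layout that the file names give and in the table their values were normalized in, which cannot be told apart from the tissue.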

How the results depend on the processing

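The thymus fit called 1429 genes as reported, and separate fits called 801 with no filter on low values, 812 with median-ratio scaling (448 higher and 364 lower, against 240 higher and 1189 lower as reported), 787 with the replicate block and 472 to 2408 without 1 library. In the liver (2607 called) the counts without 1 library were 1539 to 2640, and median-ratio scaling gave 1036 higher and 1066 lower, against 718 and 1889. The median gene moved to 0.00 in the thymus and -0.01 in the liver with that scaling. Members called numbered 5 to 8 for the thymus (6 as reported), 7 to 10 for the liver (10) and 9 for the comparison of tissues. The replicate numbers did not pair the libraries: deviations of same-numbered libraries correlated between -0.0465 and 0.00763 (thymus) and between -0.0634 and 0.0659 (liver). With the replicate block 5 members were called in the thymus, Klra9 being lost (adjusted p = 0.0594), and 10 in the liver. Changes near 0 turned sign. In the thymus, leaving out 1 library gave -0.15 to 0.014 for Klra1, -0.15 to 0.021 for B2m, -0.094 to 0.070 for Tbx21 and -0.11 to 0.16 for H2-K1. Tbx21 was at 0.018 with a pseudocount of 0.1 and 0.020 with median-ratio scaling, and with no filter Hcst was at -0.024 and H2-K1 at -0.095. In the liver, leaving out 1 library gave -0.059 to 0.24 for Tyrobp, -0.12 to 0.013 for Id2, -0.17 to 0.026 for Hcst and -0.0047 to 0.047 for H2-K1, and with no filter Tyrobp was at -0.047 and H2-K1 at -0.090. The cause of these moves was not tested. Of the summed FPKM, the liver order turned round without Klra13-ps and Klra23 (ratio of cKO to YFP+ means 0.723, against 1.199 with them), and the thymus ratio fell to 1.86, against 3.75.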
